A study of Oryctolagus cuniculus with 10 samples.

Results

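The genes described here were high in cells grown on matrix from ASC and DF and low in cells grown on plastic or on matrix from SDSC. They were chosen by their values in those 4 cell libraries, on the log2(RPKM + 1) scale (RPKM relates the reads of a gene to its length and to the size of the library). A gene needed 1 RPKM or more on average over the 10 libraries. The lower of its ASC and DF values had to exceed the higher of its plastic and SDSC values by at least 1, here called the gap. Of the 12244 genes at that level, out of 29587 in the table, 254 (2.07%) passed the gap. From these, 7 were left out because they were higher in pellets by at least 2 in all 5 substrates, 10 because they were lower by as much, and 33 because plastic lay at least 1 below every other cell library, with 1 gene left out on more than 1 ground. The remaining 205 genes are the members. Before the filter on low values, 223 genes met the other conditions.

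All libraries came from infrapatellar fat pad stem cells (IPFSCs) of New Zealand White rabbits. The cells were expanded on tissue culture plastic or on a decellularized matrix (dECM, for decellularized extracellular matrix) laid down by human adipose stem cells (ASC), dermal fibroblasts (DF), synovium-derived stem cells (SDSC) or urine stem cells (USC), and sequenced as such or after 21 days as pellets in chondrogenic medium. Each of the 5 substrates has 1 library of cells and 1 of pellets, 10 in all. The labels do not give the number or age of the rabbits or of the human donors, or whether cells were pooled, and each dECM stands for 1 kind of human source cell. Every library, plastic included, holds rabbit cells of the same labelled type, and no pellet was cultured without chondrogenic medium.

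Stem cells of the infrapatellar fat pad, the fat cushion under the kneecap, are stromal cells that can form cartilage when packed into a pellet and given chondrogenic factors. A dECM is the network of collagens, fibronectin, proteoglycans and bound growth factors that remains once the cells that made it are removed. Cells sense such a matrix through integrins, through its stiffness and through the factors it holds, and stromal cells are often expanded on it before differentiation. In pellet culture the cells stop spreading on a flat surface, round up and build a matrix of their own.

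The table lists rabbit Ensembl identifiers without names, and 0 of them matched the name table at hand (38822 genes). The members are therefore described by level and pattern, with 4 identifiers in all. The labelled cell type was not checked against its markers, and no sequence or function is given. The libraries held from 14019466 reads counted in genes (ASC dECM cells) to 19826154 (SDSC dECM cells). In a cell library the members had a median of 133 (plastic) to 509 (DF) reads. From 8 to 34 members had under 20 reads in each cell library. In bulk RNA of this kind, fewer cells expressing a gene and less RNA per cell cannot be told apart.

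In the cells, the median member stood at 17.9 RPKM on ASC dECM and 16.7 RPKM on DF dECM, against 3.71 RPKM on plastic and 4.65 RPKM on SDSC dECM. Cells on USC dECM, which the gap did not use, had a median of 10.2 RPKM. The median of all 12244 tested genes moved little, between 11.5 and 12.0 RPKM in the 5 cell libraries. The order of the substrates follows from how the genes were chosen and is given as a description. Together the members made up 2.66% of the summed RPKM of the ASC cells and 2.49% of that of the DF cells, and 0.679% and 0.879% of that of the plastic and SDSC cells. In the USC cells the share was 1.78%. No member was at 0 in the ASC or DF cells, while 7 were at 0 reads on plastic and 2 on SDSC dECM.

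**Figure D1:**
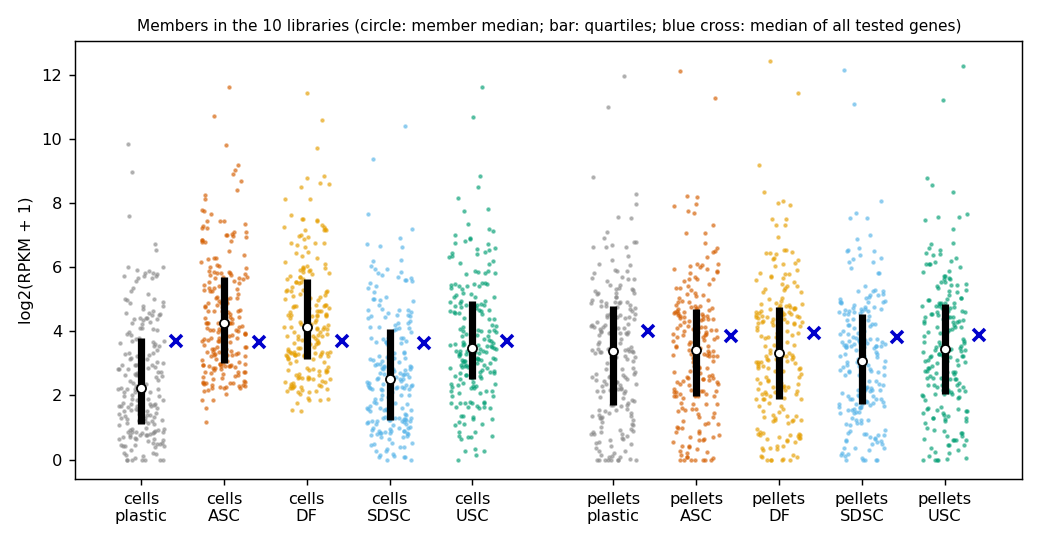
Level of the 205 members in each of the 10 libraries, on the log2(RPKM + 1) scale (vertical axis), with 5 cell libraries on the left and 5 pellet libraries on the right. Each dot is a gene, the circle is the member median, the bar spans the quartiles and the blue cross is the median of all 12244 tested genes; member medians run from 2.24 (plastic) to 4.24 (ASC) in cells and only from 3.07 (SDSC) to 3.43 (USC) in pellets.

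Most members sat close to the threshold. The median gap was 1.33 on the log2 scale, 72 members had a gap of at least 1.5, 28 of at least 2, 7 of at least 3 and 4 of at least 4. Within 0.1 of the threshold, 40 members lay inside and 32 genes lay outside. The member nearest to the threshold stood at 10.4 (ASC) and 9.02 (DF) RPKM against 3.60 (plastic) and 4.01 (SDSC). The nearest gene outside had 3.81 and 3.19 RPKM against 1.10 and 0.904 RPKM, a gap of 0.996. In 197 of the 205 members, the 95% Poisson intervals of ASC and DF cells lay above those of plastic and SDSC cells. In the other 8 the lower of the ASC and DF values rested on 7 reads or fewer. The members were chosen for a gap in these same libraries, which favours such separation. The share over all tested genes was not computed. Separate intervals concern a difference above 0, not a gap of at least 1. The intervals cover counting only, not differences between cultures.

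ASC and DF cells held the members at similar levels. The ASC value was the higher in 128 members (62.4%, against 46.3% of all tested genes) and the DF value in 77 (37.6%, against 53.5%). The median ASC minus DF difference was 0.08 on the log2 scale, against -0.01 over all tested genes. Differences of at least 1 were found in 3 members, all higher on DF (1.46%, against 0.408% of all tested genes). No member was higher on ASC by as much, against 0.286%. SDSC cells lay above plastic cells in 148 members (72.2%, against 42.9% of all tested genes) and below in 56 (27.3%, against 56.9%). The median difference was 0.19, against -0.05 over all tested genes. No member differed between SDSC and plastic cells by 1 or more, a limit that the rule sets in part, since it leaves out genes whose plastic value lies that far below every other. Of all tested genes, 1.36% were higher on SDSC dECM by as much and 2.43% higher on plastic. The member that differed most between ASC and DF was lower on ASC by 1.69 on the log2 scale.

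A few genes had far larger gaps than the rest. ENSOCUG00000024425, the member with the largest gap (5.29), stood at 517 RPKM (95% Poisson interval 501.8 to 533) in ASC cells and 386 RPKM (374 to 399) in DF cells. On plastic it stood at 4.04 RPKM (2.94 to 5.42), on SDSC dECM at 8.93 RPKM (7.31 to 10.8) and on USC dECM at 128 RPKM (121 to 135). The USC value thus lay between the pairs, above SDSC and below DF by more than counting error. ENSOCUG00000029337 followed with a gap of 5.26. It had 89.2 RPKM (85.6 to 93.0) in ASC cells and 107 RPKM (103 to 111) in DF cells. Plastic and SDSC cells were at 1.35 RPKM (0.980 to 1.81) and 0.928 RPKM (0.639 to 1.30), with intervals that overlap, and USC cells at 10.7 RPKM (9.58 to 11.8).

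**Figure D2:**
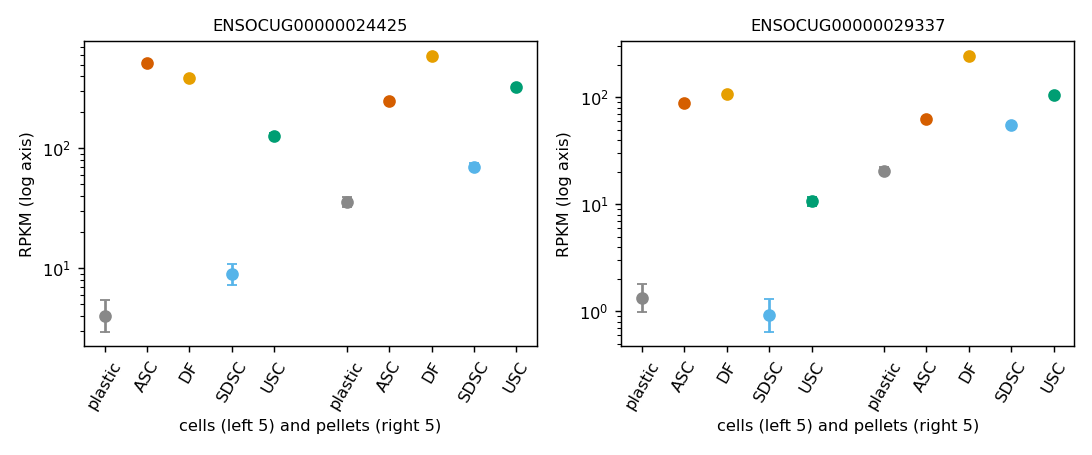
RPKM on a log axis of ENSOCUG00000024425 (left) and ENSOCUG00000029337 (right) in the 5 cell and 5 pellet libraries, 1 point per library with its 95% Poisson interval. In cells both genes are far higher on ASC and DF than on plastic and SDSC; in pellets the DF library is the highest for both (583 and 243 RPKM) and plastic the lowest (35.8 and 20.7 RPKM).

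The 5 members next in order of the gap had the same shape at lower levels. The third stood at 77.0 RPKM (ASC), 53.7 RPKM (DF), 1.55 RPKM (plastic), 1.27 RPKM (SDSC) and 13.9 RPKM (USC), and the fourth at 31.7, 31.2, 0.418, 0.691 and 3.22 RPKM in the same order. In both, USC cells were above plastic and SDSC cells and well below ASC and DF cells. The member with the eighth largest gap was more abundant, with 898 RPKM in ASC cells and 842 RPKM in DF cells against 59.2 RPKM on plastic, 105 RPKM on SDSC dECM and 456 RPKM on USC dECM. At the other end, the most abundant member of all was high everywhere and near the threshold. It stood at 3147 RPKM (ASC), 2774 RPKM (DF) and 3129 RPKM (USC) against 908 RPKM on plastic and 1344 RPKM on SDSC dECM, and at 3930 to 5459 RPKM in the 5 pellet libraries. It alone supplied from 19.5% (DF) to 29.0% (USC) of the members' summed RPKM in the cell libraries.

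Where USC dECM cells fell was not used by the gap, though the rule did leave out genes that were low on plastic alone, and the levels on either side were chosen to be high or low. It is therefore given without a test. On a scale with 0 at the mean of plastic and SDSC cells and 1 at the mean of ASC and DF cells, the median member lay at 0.600 in USC cells, with quartiles of 0.406 and 0.761. USC cells were nearer to ASC and DF in 133 members and nearer to plastic and SDSC in 72. In 167 members they lay between the pairs. They were above both ASC and DF in 16 members, between these in 14 and no higher than the upper of plastic and SDSC in 8. USC cells exceeded both plastic and SDSC cells by at least 1 on the log2 scale in 78 members (38.0%), against 1.37% of all tested genes, and fell short of both ASC and DF by at least 1 in 44 members (21.5%), against 0.825%. How far the choice of members for wide gaps raises these shares was not tested. Intermediate values were the commonest, and the positions formed a single broad peak. Genes that met the opposite rule (115 genes, low in ASC and DF cells) had a median position of 0.747 on the same scale, with 103 of them nearer to ASC and DF. The difference between these lists was not tested.

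**Figure D3:**
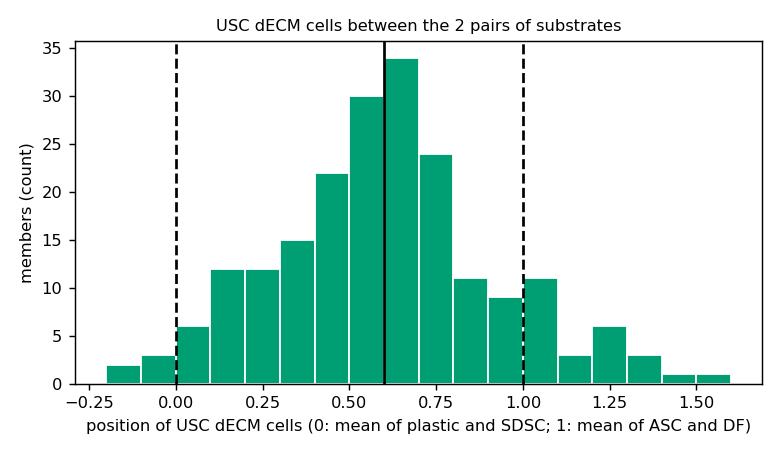
Histogram of the position of USC dECM cells for the 205 members, where 0 (dashed) is the mean of plastic and SDSC cells and 1 (dashed) the mean of ASC and DF cells on the log2(RPKM + 1) scale; the vertical axis counts members. The solid line is the median, 0.600, and most members lie between the dashed lines in a single broad peak.

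Pellets offered a look at the same contrast in libraries that the gap had not used. After 21 days, member medians were 9.65 RPKM (ASC), 8.92 RPKM (DF), 9.32 RPKM (plastic), 7.38 RPKM (SDSC) and 9.81 RPKM (USC), a far narrower spread than in cells. The median range over the 5 libraries of a stage was 0.75 on the log2 scale in pellets and 1.94 in cells, and over all tested genes it was 0.47 and 0.49. The gap sets a range of at least 1 in cells for every member, which 14.7% of all tested genes reached. The choice of members thus favours a wider spread in cells. The 115 genes of the opposite rule had median ranges of 0.88 in pellets and 1.90 in cells. In pellets, 76 members (37.1%) still ranged over at least 1, against 9.92% of all tested genes. Among pellets the members thus spread more than the typical gene, and their medians did not keep the order seen in cells.

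Pellets from ASC and DF dECM were compared with pellets from plastic and SDSC dECM in a limma fit of the 5 pellet libraries, across all 12244 genes. No gene was called at a Benjamini-Hochberg adjusted p under 0.05, so 0 of 205 members were called, against a background of 0%. An unadjusted p under 0.05 was reached by 330 genes (2.7%), of which 15 were members (7.32% of 205), 13 higher and 2 lower in ASC and DF pellets. limma-voom on whole reads recovered from the table also called 0 genes. With limma-voom, 329 genes (2.69%) reached an unadjusted p under 0.05, of which 17 were members. The spread in these fits is that between different substrates, since none was repeated. The count of 0 rested on each of 4 libraries. Without the plastic pellets 176 genes were called (10 of them members), without the ASC pellets 46 (7 members), without the DF pellets 21 (2 members) and without the SDSC pellets 1 (0 members). Each of these fits leaves 1 residual degree of freedom, with the lone library of a class assumed to vary like the others.

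Read without a test, the members leaned slightly in the direction they had in cells. The median ASC and DF minus plastic and SDSC difference in pellets was 0.15 on the log2 scale (quartiles -0.06 and 0.40), against 0.00 over all tested genes, and 138 members (67.3%) were above 0, against 50.3%. Without the SDSC pellets the median fell to 0.02, against -0.07 for all genes, and without the DF pellets to 0.09, against -0.04. Both ASC and DF pellets lay above both plastic and SDSC pellets in 36 members (17.6%), against 12.5% of all tested genes, and below both in 21 members (10.2%), against 14.7%. Separations of at least 0.5 in the cell direction were found in 5 members, 2.44% against 0.686%. The 95% Poisson intervals were also apart in 13 of the 36 members and in 4 of the 21. The same counts over all tested genes were not made, so these have no background beside them. With the plastic, ASC, DF or SDSC pellets left out in turn, 111, 72, 69 and 78 members were apart in the cell direction, against 47.1%, 28.7%, 19.0% and 27.0% of all tested genes, since fewer values then need to be apart. For comparison, 51 of the 115 genes of the opposite rule (44.3%) lay below in both ASC and DF pellets, and 5 (4.35%) above. Whether the lists differ in this was not tested.

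**Figure D4:**
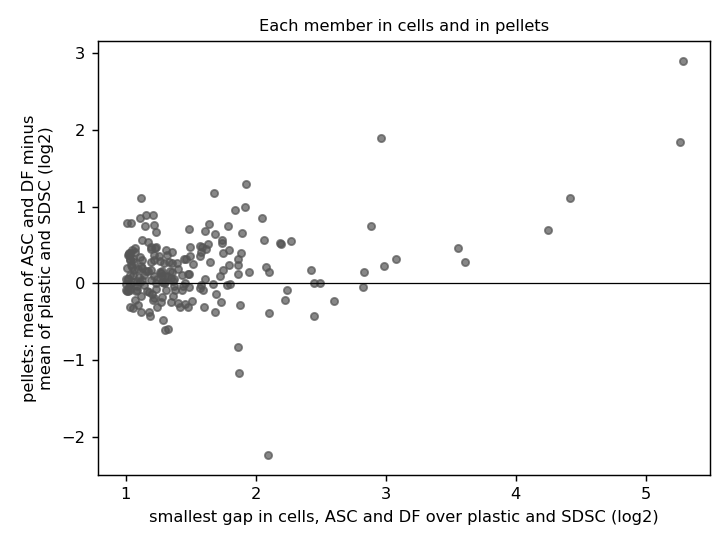
Each of the 205 members by its gap in cells (horizontal axis, log2) and the ASC and DF minus plastic and SDSC difference of its pellets (vertical axis, log2). Most members lie between -1 and 1 in pellets; the highest points are ENSOCUG00000024425 (2.90) and 2 others at 1.89 and 1.84, and of the 4 members with a gap of at least 4 the pellet differences are 2.90, 1.84, 1.11 and 0.69.

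Across members, the gap in cells and the pellet difference correlated at 0.371 (Pearson) and 0.12 (Spearman, n = 205 genes). Without the 7 members whose gap was at least 3, the values were 0.0675 and 0.051 (n = 198 genes). The Pearson value thus rests on a few genes with large gaps. These are correlations across genes measured in the same libraries, and genes are not replicates.

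ENSOCUG00000024425 also had the largest pellet difference of all members. Its pellets stood at 248 RPKM (ASC), 583 RPKM (DF), 35.8 RPKM (plastic), 70.3 RPKM (SDSC) and 325 RPKM (USC). The ASC, DF and USC pellets were all above the plastic and SDSC pellets, with no overlap. The difference between ASC and DF and the other pair came to 2.90 (log2, SE 0.476), which did not pass the test (limma, adjusted p = 1). Over the alternatives its adjusted p ran from 3.24e-09 without the ASC pellets, through 0.00101 without the DF pellets, to 1.

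ENSOCUG00000029337 kept its direction less clearly. Its pellets stood at 62.5 RPKM (ASC), 243 RPKM (DF), 20.7 RPKM (plastic), 54.9 RPKM (SDSC) and 106 RPKM (USC). ASC and SDSC pellets were close, and the DF pellets stood highest. The pellet difference came to 1.84 (log2, SE 0.696; limma, adjusted p = 1), and to 0.87 without the DF pellets (limma, adjusted p = 1). Without the ASC pellets it was 2.81 (limma, adjusted p = 6.52e-07), where the DF library alone stands for the class. The member with the ninth largest gap showed a like dependence on 1 library, at 120 RPKM in DF pellets against 24.5 (ASC), 17.2 (plastic), 11.4 (SDSC) and 20.8 RPKM (USC).

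The lowest pellet difference belonged to ENSOCUG00000019211, a gene with a length of only 65 bases in the counting and few reads. In cells it had 6 reads on ASC (6.58 RPKM), 8 on DF (7.82 RPKM), 9 on USC (7.50 RPKM), 1 on SDSC (0.776 RPKM) and 0 on plastic, which allows up to 2.54 RPKM. In pellets the order was turned, with 0 reads after ASC dECM (up to 3.07 RPKM) and 1 after DF dECM (0.793 RPKM), against 8 after plastic (6.99 RPKM) and 5 after SDSC dECM (4.01 RPKM). The difference of -2.24 on the log2 scale (SE 0.366) did not pass the test (limma, adjusted p = 1). It passed without the ASC pellets (-1.82; limma, adjusted p = 0.0103) and without the DF pellets (-2.66; limma, adjusted p = 1.15e-05), and with a pseudocount of 0.1 RPKM the difference was -4.17 (limma, adjusted p = 1). The Poisson intervals of the 2 groups overlap in pellets. A second member had more reads, but its order turned only by a narrow margin, 5.16 RPKM in ASC pellets against 5.18 RPKM in plastic pellets. ENSOCUG00000004632, chosen after its values were seen, stood at 114 RPKM (ASC) and 76.3 RPKM (DF) against 20.1 RPKM (plastic) and 18.0 RPKM (SDSC) in cells. Its pellets stood at 5.16 RPKM (ASC), 1.55 RPKM (DF), 5.18 RPKM (plastic), 11.8 RPKM (SDSC) and 5.75 RPKM (USC). The ASC and plastic pellets were level there, DF was lowest and SDSC highest.

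Ranked within each gene, the USC pellet was the highest more often in members than in all tested genes, and the plastic pellet less often. The SDSC pellet was often the lowest, in members and in all tested genes. The USC pellet was the highest of the 5 in 50 members (24.4%), against 8.76% of all tested genes, and the lowest in 5 (2.44%), against 14.0%, with ties not counted. The SDSC pellet was the lowest in 93 members (45.4%), where 38.6% of all tested genes also had it lowest. The plastic pellet was the highest in 43 members (21.0%), against 37.8%. These ranks shift with the scaling of the libraries, mostly for all genes: with median-of-ratios scaling, USC was highest in 51 members against a background of 12.5%, SDSC lowest in 81 against 28.3% and plastic highest in 33 (16.1%) against 23.9%.

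Between single pellet libraries, differences of 1 or more (log2) were commonest against SDSC. ASC, DF and USC pellets each exceeded the SDSC pellet by at least 1 in 30 members (14.6%), against 2.16%, 2.31% and 1.66% of all tested genes. The plastic pellet did so in 32 members (15.6%, against 2.95%) and was lower than the SDSC pellet by as much in 14 (6.83%, against 2.67%). ASC, DF and USC pellets exceeded the plastic pellet by as much in 13, 17 and 13 members, against 1.48%, 1.54% and 0.792%. In the other direction the counts were 4, 5 and 2 members against SDSC (1.14%, 1.75% and 1.61% of all genes). Against plastic they were 1, 7 and 1 (0.776%, 0.849% and 0.449%). These comparisons share the SDSC or the plastic library and have 1 library on each side, so they are not independent of each other.

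From cells to pellets the members' median levels came closer together, a course that the choice of members by their cell levels favours. The rule used pellet minus cell differences only to leave genes out, but the cell levels that enter them were chosen. The differences are therefore described without a test. The median pellet minus cell difference was -1.23 after ASC dECM and -1.09 after DF dECM, -0.35 after USC dECM, 0.22 after SDSC dECM and 0.61 after plastic. Over all tested genes the medians ran from 0.12 to 0.24, and median-of-ratios scaling brought them to between 0.00 and 0.01. Relative to the median of all genes, the members stood at -1.39 (ASC), -1.33 (DF), -0.49 (USC), 0.10 (SDSC) and 0.38 (plastic) as deposited, and at -1.41, -1.33, -0.50, 0.11 and 0.40 with that scaling. Falls of at least 1 were seen in 115 members after ASC dECM (8.13% of all tested genes fell so) and in 108 after DF dECM (7.51%). After USC dECM there were 64 (8.71%), after SDSC dECM 27 (5.56%) and after plastic 15 (7.38%). Rises of at least 1 ran the other way, with 76 members after plastic (12.3% of all tested genes), 55 after SDSC (8.57%), 21 after ASC (11.9%) and 20 after DF (13.1%). After USC dECM, 46 members (22.4%) rose by as much, as did 1228 of the 12244 tested genes.

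**Figure D5:**
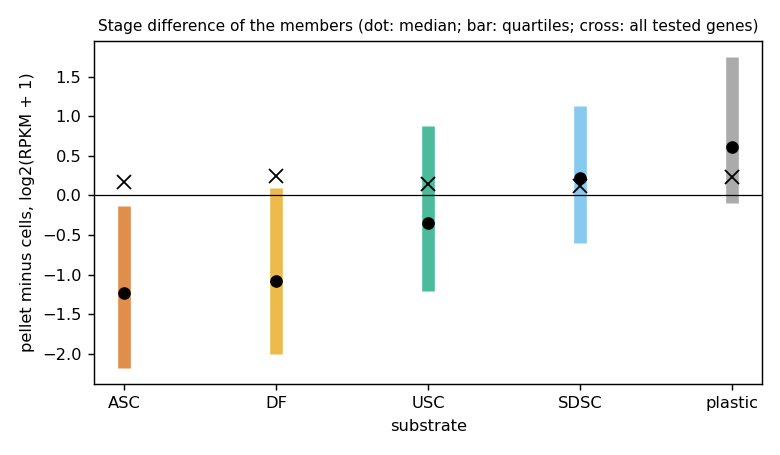
Pellet minus cell difference of the 205 members on the log2(RPKM + 1) scale (vertical axis) for each substrate (horizontal axis); the dot is the median, the bar spans the quartiles and the cross is the median of all tested genes. The member medians climb from -1.23 (ASC) to 0.61 (plastic), while the crosses stay between 0.12 and 0.24.

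Behind these medians lay distinct courses. In 53 members (25.9%) the level fell after ASC and DF dECM and rose after plastic and SDSC dECM, against 3.61% of all tested genes, a course that the choice of members favours. Of these, 36 fell and 17 rose after USC dECM. In another 53 members (25.9%, against 18.9%) the pellets were lower than the cells in all 5 substrates, and in 38 members (18.5%, against 38.8%) they were higher in all 5. The remaining 61 followed other courses. With median-of-ratios scaling, 61 members were lower and 31 higher in all 5, and the shares over all tested genes were not computed there. Genes that moved by at least 2 in all 5 substrates were left out of the members but not of all tested genes. The members that fell everywhere had cell medians of 21.0 RPKM (ASC), 17.8 RPKM (DF), 5.27 RPKM (plastic), 6.40 RPKM (SDSC) and 13.4 RPKM (USC), and pellet medians of 2.16 to 3.26 RPKM. The members that rose everywhere started lower, at 9.19 RPKM (ASC), 9.16 RPKM (DF), 1.81 RPKM (plastic), 2.66 RPKM (SDSC) and 7.02 RPKM (USC), and reached 13.8 RPKM in SDSC pellets and 19.7 to 24.5 RPKM in the others. One of them was the member with the 11th largest gap, at 13.3 RPKM (ASC), 9.06 RPKM (DF), 9.34 RPKM (USC), 0.150 RPKM (plastic) and 0.412 RPKM (SDSC) in cells, and at 17.9 to 25.3 RPKM in the 5 pellets. The eighth by gap, in contrast, fell from 898 and 842 RPKM in ASC and DF cells to 134 and 86.1 RPKM in their pellets, while it stood at 66.4 RPKM in plastic pellets and 127 RPKM in SDSC pellets.

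Length, which the gap did not use, and overall level were near those of all tested genes in the members. Their median gene length, as implied by the RPKM and the recovered reads, was 1949 bases (quartiles 1113 and 3132), against 1802 bases (969 and 3015) for all tested genes. Genes under 500 bases made up 22 of the 205 members (10.7%), against 11.8%. Mean level over the 10 libraries had a median of 11.2 RPKM in the members and 13.4 RPKM in all tested genes, and 57 members (27.8%) had a mean under 5 RPKM, against 24.8%. That mean includes the cell libraries that the gap read, and the filter on low values used it.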

How the data were processed

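RNA was measured in 10 libraries of rabbit fat pad stem cells, 1 per substrate and stage. Per the labels' protocols, RNA was taken up in Trizol, cleaned on RNeasy columns and turned into libraries with a KAPA mRNA HyperPrep kit. Subread, featureCounts and build OryCun2.0 are named per the submitters' processing notes; versions, annotation and strand setting were not given in the sources used here. What the authors deposited are log2 values that equal log2(RPKM + 1) with 0.0001 added. Undoing this gave RPKM whose steps were whole reads in all 21536 genes above 0 (tolerance 0.02), 100% of them. With the library total that fits best, 0.0157% above the recovered total, implied gene lengths were within 0.1 of a whole number in 99.9% of tested genes.

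The scale tested was log2(RPKM + 1), whose pseudocount of 1 RPKM understates changes of low genes, for genes averaging 1 RPKM or more. The 5 pellet libraries were fitted with limma 3.58.1 in R 4.3.3 with 3 classes (ASC and DF, plastic and SDSC, USC), a variance prior that follows level, two-sided, Benjamini-Hochberg adjustment over all genes and a threshold of 0.05. With 1 library per substrate and stage, p-values measure the spread between substrates. Other values came from scipy 1.17.1, pandas 2.3.3 and numpy 2.4.6 under Python 3.11.15, and matplotlib 3.10.9 drew the figures. The fit was tested on simulated data. Alternatives covered the pseudocount, the filter, the scaling, the fit and each library left out.

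The members and lists were chosen with earlier results of these data known. The rule for identifiers took the 2 members with the largest gap and those with the largest and the lowest pellet difference, each with at least 5 RPKM in a library of the stage ranked; the largest pellet difference belonged to a gene already taken. The 23 gene lists drawn up for the report were not used, as no identifier could be named.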

Additional observations from a re-analysis of the deposited data

Results flagged for a closer look

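In 21 members (10.2%) the order of the substrates turned between stages. ASC and DF lay above plastic and SDSC in both cell comparisons and below them in both pellet comparisons. Of all tested genes, whatever their order in cells, 14.7% had ASC and DF pellets below both plastic and SDSC pellets. The cell order was fixed by the choice of genes, and the difference between the stages was not tested. The pellet difference of these members had a median of -0.28 on the log2 scale and ran from -2.24 to -0.10, and 15 of them had a mean of at least 5 RPKM in pellets. The most extreme was ENSOCUG00000019211 (-2.24), which rests on 0 to 9 reads per library. Dixon's test for a library far from the other 4 was applied to 5 sets of pellet values (the members' sum and median and 3 identifiers) and found none, where chance gives about 1 in 20.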

How the results depend on the processing

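The count of 0 genes called between ASC and DF pellets and plastic and SDSC pellets was also 0 with a pseudocount of 0.1 RPKM, both other scalings, no filter, a mean of at least 5 RPKM, all 10 libraries, a flat variance prior and limma-voom. With each library left out in turn it ran from 0 to 176 genes and from 0 to 10 members. The 36 members with both ASC and DF pellets above both others (17.6%, against 12.5% of all tested genes) became 69 to 111 with 1 library fewer, where fewer values need to be apart. These were 33.7% to 54.1% of the members, against 19.0% to 47.1% of all tested genes. The members' median pellet difference ran from 0.0236 to 0.218 with a library left out, and was 0.143 with either scaling and 0.209 with a pseudocount of 0.1 RPKM. Over all tested genes the median ran from -0.0744 (without the SDSC pellets) to 0.0667 (without the plastic pellets). A smallest gap of 0.75, 1.5 or 2 gave 335, 72 or 28 members. Median-of-ratios scaling gave 205 members, 197 of them shared, quantile normalization 189 (186 shared) and the pseudocount of 0.1 RPKM 252 (176 shared). With median-of-ratios scaling, tried after the data were seen, the members' median stage difference after SDSC dECM was 0.112 on the log2 scale, compared with 0.225 as deposited. Few reads limit some members. In cells, 34 had under 20 reads on plastic and 33 on SDSC dECM, where the members were chosen to be low, against 9 on ASC and 8 on DF dECM. No paired analysis was made of the pellets. The test compares pellets of different substrates with 1 library each, and the labels name no animal or pool by which to pair them. Cells and pellets pair by substrate, but that difference was described and not tested, since the members were chosen on cell values.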
